A study of Mus musculus with 9 samples.

Results

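The genes described here encode, in the nucleus, the subunits of the 5 complexes of oxidative phosphorylation and the assembly factors that carry the same names. They were taken by symbol, as the genes whose annotated name begins with Nduf, Sdha, Sdhb, Sdhc, Sdhd, Uqcr, Cox4, Cox5, Cox6, Cox7, Cox8 or Atp5. This gave 94 of the 18193 genes measured. Of these, 34 are subunits of complex I, 4 of complex II, 8 of complex III, 19 of complex IV and 17 of the ATP synthase, and 12 are assembly factors (8 of complex I, 4 of complex II). Ndufa4, long counted with complex I, was placed in complex IV.

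The study deleted the nuclear receptor COUP-TFII (gene Nr2f2) in mouse heart muscle, and 3 groups of 3 arrays each were compared. Mutant right atria came from Myh6-cre mice with the COUP-TFIIflox/flox alleles, in which a cardiomyocyte promoter drives Cre recombinase. Control ventricles and control right atria came from COUP-TFIIflox/flox mice, for which no Cre is listed. All mice were on the C57BL/6 background and 2 months of age, and the labels call the replicates biological, without saying whether a sample is 1 animal or a pool. Cre is present in only the mutants, so its own effect cannot be told apart from that of the deletion. No mutant ventricles were analysed here. Nr2f2 itself had log2 intensities of 6.82, 6.62 and 6.82 in mutant right atria, against 7.53, 7.66 and 7.29 in control right atria. In control ventricles they were 5.96, 5.34 and 5.74, below all mutant right atria. These values are from the brightest of its 6 probe sets.

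In oxidative phosphorylation, complex I and complex II pass electrons from NADH and from succinate to coenzyme Q. Complex III passes them on to cytochrome c and complex IV to oxygen, and the ATP synthase uses the proton gradient built on the way to make ATP. Heart muscle depends on this system for most of its ATP, and several subunits of complex IV exist as separate genes, a form abundant in heart and skeletal muscle and a form found in most tissues. The mitochondrial genome encodes a further set of core subunits, which were not analysed here.

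The levels are log2 intensities, from a single probe set per gene, and the ratios are differences of group means of these values (log2 ratios). Each ratio is given ± its standard error from limma, fitted to all 9 arrays with n = 3 in every group. A gene passed where the Benjamini-Hochberg adjusted p of limma over all 18193 genes was under 0.05. All adjusted p-values below are from this model. The array medians lay between 80.9 and 83.4 and the array maxima between 33296 and 35272 on the linear intensity scale, that is at log2 15.02 to 15.11 for the maxima. Cardiomyocyte genes were bright in all 9 arrays, as the labelled tissue requires, with a summed level of 12 markers of 18.04 to 18.09 in mutant right atria, 18.09 to 18.12 in control ventricles and 17.98 to 18.03 in control right atria. Of these 12, 2 were higher in mutant than in control right atria (Mybpc3 and Pln), where 7.76% of all genes were higher. In control ventricles 3 were higher than in control right atria, against 29.2% of all genes. In mutant right atria 1 was lower than in control ventricles, against 16.7% of all genes. Both counts with control ventricles lie below the shares of all genes.

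Stretches of 300 bases around the start site (RefSeq, GRCm38.p6, minus strand of the chromosome, printed 5′ to 3′ of the gene) are shown for 4 members that recur below. Sdhd and Ndufs5 are members of complexes II and I that were higher in mutant right atria, and Cox8b and Cox8a are the muscle form and the form of most tissues of a complex IV subunit, which differed in opposite directions between ventricle and atrium. Sdhd lies at chr9:50603800-50604099, Ndufs5 at chr4:123718137-123718436, Cox8b at chr7:140900397-140900696 and Cox8a at chr19:7217567-7217866. Capitals mark matches, on either strand, to the motif letters described next.
Sdhd: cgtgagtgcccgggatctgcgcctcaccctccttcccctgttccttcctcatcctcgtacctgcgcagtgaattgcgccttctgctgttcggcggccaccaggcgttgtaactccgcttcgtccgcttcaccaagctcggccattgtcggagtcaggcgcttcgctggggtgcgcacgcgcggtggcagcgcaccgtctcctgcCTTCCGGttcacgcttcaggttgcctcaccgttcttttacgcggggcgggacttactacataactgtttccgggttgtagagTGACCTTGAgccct
Ndufs5: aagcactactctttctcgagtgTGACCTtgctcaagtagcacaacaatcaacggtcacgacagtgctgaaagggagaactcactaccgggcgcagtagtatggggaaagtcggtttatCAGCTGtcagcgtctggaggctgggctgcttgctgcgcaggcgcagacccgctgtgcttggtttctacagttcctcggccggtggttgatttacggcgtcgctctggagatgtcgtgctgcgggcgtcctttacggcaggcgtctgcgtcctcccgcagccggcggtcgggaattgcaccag
Cox8b: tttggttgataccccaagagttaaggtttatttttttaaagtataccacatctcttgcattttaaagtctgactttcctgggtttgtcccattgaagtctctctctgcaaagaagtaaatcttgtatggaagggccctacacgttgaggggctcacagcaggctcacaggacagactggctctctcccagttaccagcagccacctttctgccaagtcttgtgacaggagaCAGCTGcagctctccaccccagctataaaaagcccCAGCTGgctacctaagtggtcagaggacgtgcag
Cox8a: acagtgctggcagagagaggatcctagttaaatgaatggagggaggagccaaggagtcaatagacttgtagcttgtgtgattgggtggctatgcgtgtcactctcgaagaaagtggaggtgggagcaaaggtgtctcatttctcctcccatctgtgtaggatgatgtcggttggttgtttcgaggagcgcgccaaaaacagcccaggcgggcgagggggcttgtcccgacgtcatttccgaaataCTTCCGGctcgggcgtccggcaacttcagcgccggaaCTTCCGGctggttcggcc
Promoter sequence was found for 78 of the 94 genes (83 promoters) and was set beside 21263 promoters of protein-coding genes of the same length. The letters TCAAGGTCA of an oestrogen-related receptor element stood in 2 of the 83 (2.41% against 0.334% of all promoters), those of Sdhd and Atp5g3. The letters AGGTCA, a nuclear receptor half-site that the first element contains, stood in 16 (19.3% against 14.7%), among them Ndufs5. The ETS letters CCGGAAG, bound by nuclear respiratory factor GABP among others, stood in 22 (26.5% against 11.6%), among them Sdhd and Cox8a, which has them in 2 places. The site of nuclear respiratory factor NRF1, searched as its palindromic letters, stood in 6 (7.23% against 1.33%) and the YY1 letters AAGATGGC in 10 (12% against 3.05%). The E-box letters CAGCTG, a motif of muscle genes, stood in 6 (7.23% against 15.6%), and Cox8b has them in 2 places. These are matches of letters and not measured binding.

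In mutant right atria more of these genes were higher than lower, by small amounts. Of the 94, 22 were higher than in control right atria and 1 was lower, while 71 did not pass. That is 23.4% higher and 1.06% lower, against 7.76% higher and 9.79% lower among all genes tested (17.5% in either direction). The log2 ratios ran between -0.53 and 0.52 with a median of 0.11, against a median of 0.03 over all genes. The arrays of both groups did not overlap, with mutant right atria higher, for 55 genes (18.9% of all genes did so) and, with mutant right atria lower, for 6 (18.9% of all genes). The higher genes were 11 of complex I, 2 of complex II, 2 of complex III, 2 of complex IV and 5 assembly factors, and 0 belonged to the ATP synthase, a count that was 7 with an intensity trend and robust variance. The count depended on single arrays, since leaving out mutant replicate 2 gave 8, leaving out mutant replicate 3 gave 9, and leaving out any one of the control right atria gave 12. Over all genes the number higher fell too, from 1411 to 781 without mutant replicate 2 and 850 without mutant replicate 3. Without control right atrium replicates 1, 2 and 3 it was 809, 903 and 1312. Of the 23 genes that passed, 8 also passed under all 18 alternatives in which the model was refitted, namely Ndufs5, Ndufv1, Sdhd, Sdhaf1, Sdhaf2, Sdhaf4, Cox8b and Cox7c.

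Control ventricles stood further above control right atria. Of the 94 genes, 73 were higher in control ventricles (77.7%, against 29.2% of all genes), 4 were lower (4.26%, against 23.6%) and 17 did not pass. Among all genes 52.8% passed in either direction. The median log2 ratio was 0.34, against 0.07 over all genes, and the ratios ran between -0.47 and 1.00. Groups did not overlap for 81 genes with ventricles higher (33% of all genes) and for 5 with ventricles lower (26.7%). The smallest p belonged to Ndufs5 and the largest to Uqcrh, a hinge subunit of complex III.

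Set directly against control ventricles, mutant right atria were lower for 50 of the 94 genes (53.2%, against 16.7% of all genes), and 1 gene, Cox8a, was higher (1.06%, against 16%). Among all genes 32.7% passed in either direction. The median log2 ratio was -0.20, against -0.05 over all genes, with a range of -0.76 to 0.36. Groups did not overlap for 75 genes with mutant right atria lower (26.8% of all genes) and for 4 with mutant right atria higher (20.5%). The 3 comparisons share their groups in pairs and are not independent of each other. As a description over the 94 genes, arrays of mutant and control right atria correlated at 0.995 to 0.998, mutant right atria and control ventricles at 0.995 to 0.997, and control ventricles and control right atria at 0.991 to 0.994, while arrays of 1 group correlated at 0.999 or above after rounding.

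**Figure D1:**
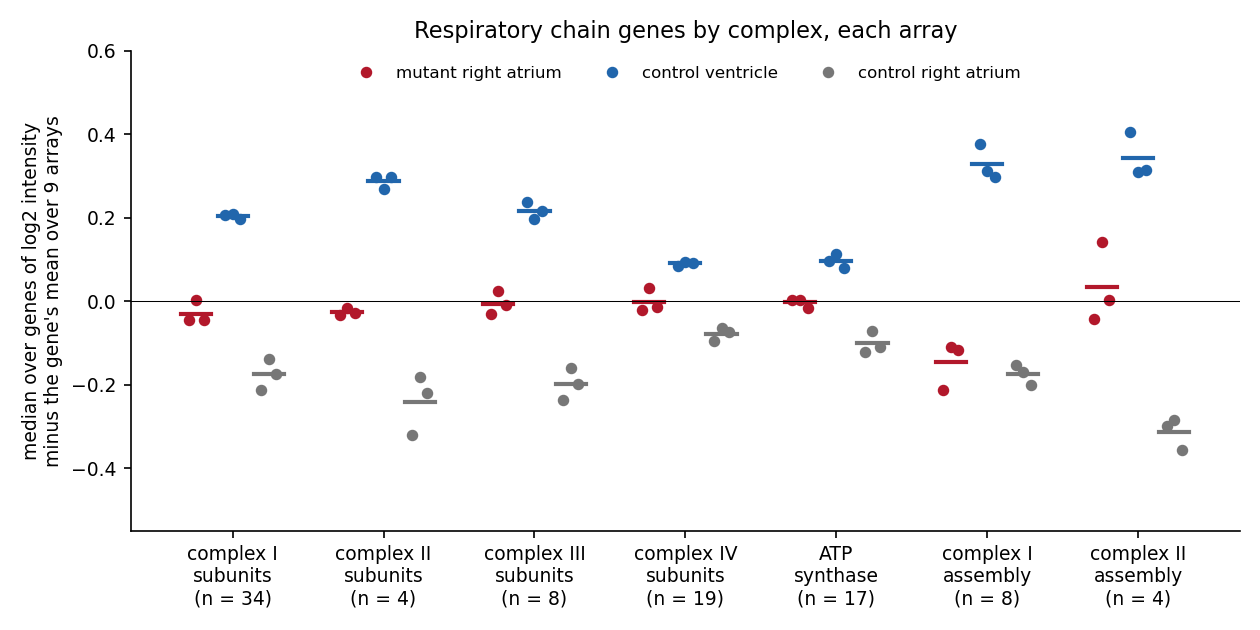
Median, over the genes of each complex, of the log2 intensity minus the gene's mean over 9 arrays (vertical axis), with a point per array and a bar at the group mean, for mutant right atria, control ventricles and control right atria. In complexes I to IV and the ATP synthase the 3 mutant points lie between those of both control tissues, while for complex I assembly factors the mutant and control right atria lie close together.

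Transcripts typical of several other cell types differed between the groups. The counts are to be read against the shares of all genes. Between mutant and control right atria 7.76% of all genes were higher and 9.79% lower. For control ventricles against control right atria the shares were 29.2% and 23.6%, and for mutant right atria against control ventricles 16% and 16.7%. The summed level of 10 hepatocyte genes was 8.56 to 8.63 in mutant right atria and 8.51 to 8.67 in control ventricles, against 11.30 to 14.01 in control right atria, and all 10 were lower in both of the first groups. The summed level of 10 mesothelium genes was 11.58 to 11.81 in mutant right atria and 10.10 to 10.47 in control ventricles, against 13.09 to 13.35 in control right atria, and again all 10 were lower. Of 9 measured macrophage genes 5 were higher in mutant than in control right atria, and 4 were lower in control ventricles than in control right atria. Their sums were 14.11 to 14.57 in mutant right atria, 13.01 to 13.58 in control ventricles and 13.88 to 13.98 in control right atria. Of 8 fibroblast genes 1 was higher and 1 lower in mutant than in control right atria, near the shares of all genes. In control ventricles 7 were lower than in control right atria. Their sums were 15.68 to 15.76 in mutant right atria, 14.78 to 14.91 in control ventricles and 15.53 to 15.64 in control right atria. Of 8 endothelium genes 1 was lower in mutant than in control right atria, again near the share of all genes. In control ventricles 4 were lower than in control right atria. Their sums were 13.12 to 13.32 in mutant right atria, 12.74 to 12.88 in control ventricles and 13.39 to 13.55 in control right atria. Of 8 ventricular muscle genes 6 were higher in mutant right atria and 1 was lower, with sums of 16.16 to 16.34 in mutant right atria, 16.41 to 16.47 in control ventricles and 13.55 to 13.78 in control right atria. Of 10 atrial muscle genes 5 were lower in mutant right atria, with sums of 16.23 to 16.72 in mutant right atria, 13.15 to 13.58 in control ventricles and 17.21 to 17.26 in control right atria. The difference between 3′ and 5′ probe sets of Gapdh, a sign of RNA quality, was 0.214 to 0.304 in mutant right atria, 0.153 to 0.227 in control ventricles and 0.345 to 0.364 in control right atria. Of 8 smooth muscle and pericyte genes 6 were higher in mutant right atria and 1 was lower, with sums of 13.97 to 14.12 in mutant right atria, 14.51 to 14.76 in control ventricles and 13.19 to 13.36 in control right atria. Of 6 measured genes of white and brown adipocytes 2 were higher and 1 lower in mutant than in control right atria. In control ventricles 3 were higher and 1 lower than in control right atria. Their sums were 9.97 to 10.43 in mutant right atria, 10.35 to 10.53 in control ventricles and 9.45 to 9.80 in control right atria. Between mutant right atria and control ventricles 10 of 10 mesothelium, 8 of 9 macrophage, 6 of 8 fibroblast and 3 of 8 endothelium genes were higher in mutant right atria. There 3 of 8 smooth muscle and pericyte genes were lower, and 0 of 10 hepatocyte genes passed in limma (0 at an unadjusted p under 0.05). The part of these differences in the respiratory chain results was not tested. In bulk tissue fewer cells of a type and less RNA per cell cannot be told apart.

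Complex I, the NADH dehydrogenase, was represented by 6 core subunits and 28 accessory subunits. In mutant right atria 11 of the 34 were higher than in control right atria and 0 were lower (median log2 ratio 0.16). That is 32.4% higher, against 7.76% of all genes, with 1 of 6 core and 10 of 28 accessory subunits. In control ventricles 30 of 34 were higher than in control right atria and 1 was lower (median 0.39), with all 6 core subunits higher. Of all genes 29.2% were higher there, against 88.2% of the 34. Against control ventricles 25 of 34 were lower in mutant right atria (median -0.23), again with all 6 core subunits among them. That is 73.5%, against 16.7% of all genes. The 6 core subunits had a median of 0.06 between mutant and control right atria, against 0.47 between control ventricles and control right atria.

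Ndufs5, an accessory subunit of the membrane arm facing the intermembrane space, had the greatest ratio within complex I in both comparisons with control right atria. Its levels were 12.82, 12.94 and 12.84 in mutant right atria, 13.17, 13.16 and 13.18 in control ventricles, and 12.33, 12.45 and 12.41 in control right atria. The 3 groups did not overlap, with mutant right atria between both control tissues. It was 0.47 ± 0.06 higher in mutant than in control right atria (1.39-fold, adjusted p = 0.001), 0.77 ± 0.06 higher in control ventricles than in control right atria (adjusted p = 8.64e-06), and lower in mutant right atria than in control ventricles (-0.30 ± 0.06, adjusted p = 0.00462). A further probe set, shared with an Ndufs5 pseudogene and left out of the counts, had means of 13.28 in mutant right atria, 13.48 in control ventricles and 13.00 in control right atria.

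Ndufv1, the core subunit that binds NADH through a flavin, had levels of 13.82, 13.88 and 13.80 in mutant right atria, 13.97, 14.08 and 14.07 in control ventricles, and 13.44, 13.60 and 13.50 in control right atria. It was the only core subunit that passed between mutant and control right atria (0.32 ± 0.07, adjusted p = 0.0113). The other complex I genes that were higher in mutant right atria were Ndufa10 (0.32 ± 0.08), Ndufb1 (0.29 ± 0.07), Ndufa5 (0.28 ± 0.06), Ndufb6, Ndufb7, Ndufab1, Ndufb5, Ndufb3 and Ndufb8, all accessory subunits, of which the last 6 lay between 0.21 and 0.25. Ndufab1, the mitochondrial acyl carrier protein, passed at 0.23 with its brightest probe set (adjusted p = 0.0321), while 2 dimmer probe sets of the gene passed in the opposite direction (-0.40 and -0.50).

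The other 5 core subunits did not pass between mutant and control right atria, while all of them were higher in control ventricles than in control right atria. Ndufs1, the largest iron-sulphur subunit, had 13.21, 13.16 and 13.10 in mutant right atria, 13.59, 13.52 and 13.57 in control ventricles, and 13.06, 13.22 and 13.12 in control right atria. Mutant and control right atria overlapped, and their ratio was 0.02 ± 0.06 (adjusted p = 0.848), against 0.43 ± 0.06 between control ventricles and control right atria (adjusted p = 0.000492). Ndufs7, which carries the iron-sulphur cluster next to coenzyme Q, had 13.47, 13.46 and 13.42 in mutant right atria, 13.82, 13.94 and 13.97 in control ventricles, and 13.30, 13.47 and 13.41 in control right atria, and was lower in mutant right atria than in control ventricles (-0.46 ± 0.07, adjusted p = 0.00078).

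Ndufs4, an accessory subunit whose loss in mice models Leigh syndrome, gave the smallest p between mutant right atria and control ventricles. Its levels were 11.47, 11.62 and 11.52 in mutant right atria, 12.10, 12.06 and 12.06 in control ventricles, and 11.40, 11.41 and 11.32 in control right atria. The ventricles stood apart from all 6 atria, with a ratio of -0.53 ± 0.06 for mutant right atria against control ventricles (adjusted p = 0.000192) and 0.16 ± 0.06 for mutant against control right atria (adjusted p = 0.109). Ndufb1 had 7.97, 8.07 and 8.001 in mutant right atria, 8.34, 8.52 and 8.52 in control ventricles, and 7.70, 7.75 and 7.74 in control right atria, so that all 3 groups were separate. Ndufb4 was the only complex I gene lower in control ventricles than in control right atria (-0.23 ± 0.07, adjusted p = 0.0239), at levels near the dim end of the array (means 4.95 and 5.18). The bright probe set shared by Ndufb4 and its copies Ndufb4b and Ndufb4c, left out of the counts, had means of 13.17 in mutant right atria, 13.50 in control ventricles and 13.17 in control right atria.

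The 8 complex I assembly factors had a wider spread. In mutant right atria 2 of 8 were higher than in control right atria and 0 were lower (median log2 ratio 0.03). That is 25% higher, against 7.76% of all genes. In control ventricles 7 of 8 were higher than in control right atria (median 0.45), against 29.2% of all genes. In mutant right atria 7 of 8 were lower than in control ventricles (median -0.42), against 16.7% of all genes. Ndufaf4, which acts early in the building of the membrane and peripheral arms, had 10.90, 11.19 and 11.08 in mutant right atria, 11.55, 11.27 and 11.37 in control ventricles, and 10.78, 10.53 and 10.39 in control right atria. It was 0.49 ± 0.12 higher in mutant than in control right atria (adjusted p = 0.021), and its ratio to control ventricles was -0.34 ± 0.12 (adjusted p = 0.0532). Ndufaf6, needed for a subunit made in the mitochondrion, had 8.98, 9.45 and 9.20 in mutant right atria, 9.72, 9.87 and 9.72 in control ventricles, and 8.87, 8.79 and 8.65 in control right atria. Its difference between control ventricles and control right atria, 1.00 ± 0.11 (adjusted p = 8.82e-05), had the greatest value of the 94 genes, and it was 0.44 ± 0.11 higher in mutant than in control right atria (adjusted p = 0.0286). Between the atria the calls of both Ndufaf4 and Ndufaf6 were lost on leaving out mutant replicate 2 or 3. The same held for control right atrium replicate 2 or 3. With only the 2 groups compared 1 of these calls was lost.

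Ndufaf1 and Ndufaf5 separated the ventricles from both kinds of atria. Ndufaf1, a factor of the intermediate complex of the membrane arm, had 10.03, 10.06 and 10.07 in mutant right atria, 10.74, 11.06 and 10.65 in control ventricles, and 9.90, 10.09 and 9.87 in control right atria. Mutant and control right atria overlapped (0.10 ± 0.11, adjusted p = 0.542), and mutant right atria were lower than control ventricles (-0.76 ± 0.11, adjusted p = 0.000539). Ndufaf5, which hydroxylates a core subunit, had 8.87, 8.88 and 8.88 in mutant right atria, 9.47, 9.60 and 9.44 in control ventricles, and 8.94, 9.19 and 9.05 in control right atria. Each mutant array lay below each control right atrium, but the ratio did not pass (-0.18 ± 0.08, adjusted p = 0.131), and mutant right atria were lower than control ventricles (-0.62 ± 0.08, adjusted p = 0.000236).

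**Figure D2:**
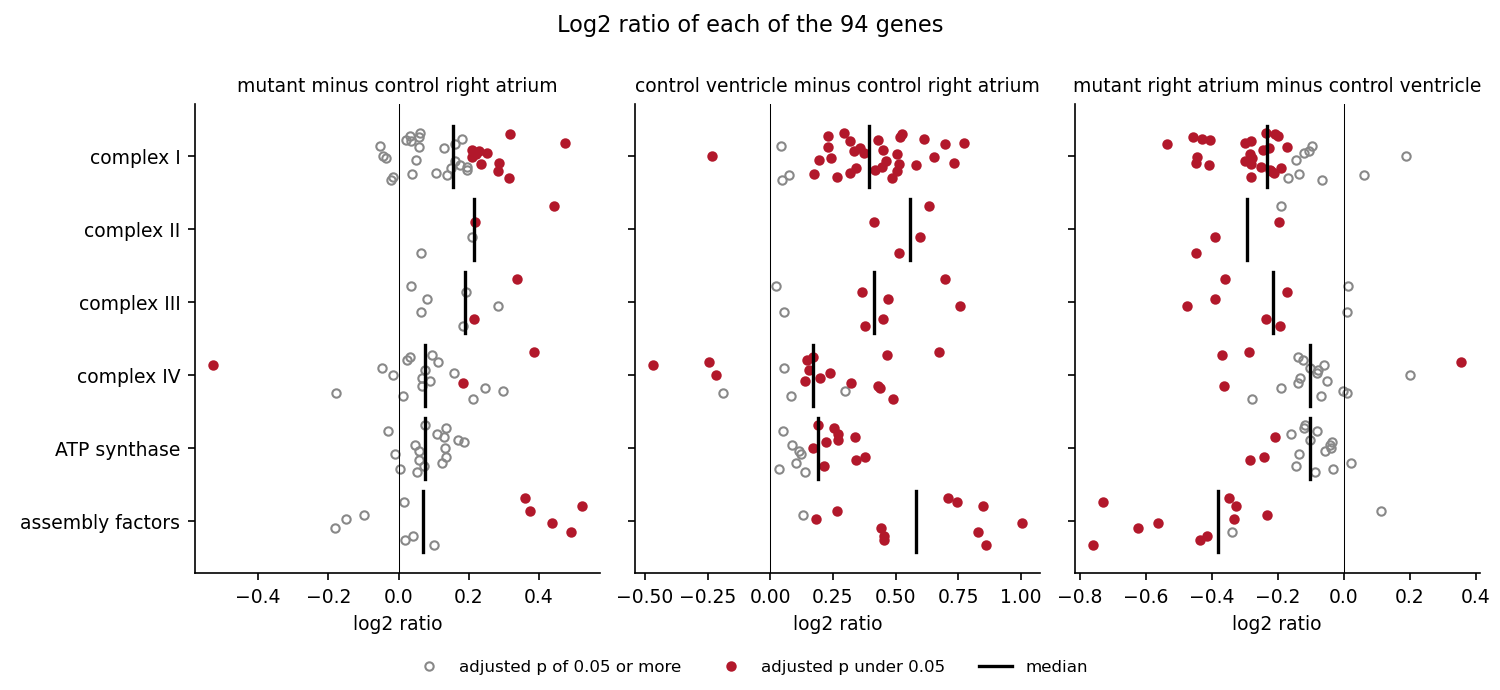
Log2 ratio of each of the 94 genes (horizontal axes) by complex, with a point per gene, filled where adjusted p was under 0.05, and a bar at the median. Between mutant and control right atria the 23 filled points lie on the positive side except Cox7c, and the ATP synthase has none, while in the other comparisons most points of complexes I to III and of the assembly factors are filled.

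Complex II, the succinate dehydrogenase, has 4 subunits, and 2 of them were higher in mutant than in control right atria (median log2 ratio 0.21). Between the atria that is 50%, against 7.76% of all genes. All 4 were higher in control ventricles than in control right atria (median 0.56), against 29.2% of all genes. In mutant right atria 3 of 4 were lower than in control ventricles (median -0.29), against 16.7% of all genes. Sdhd, which anchors the enzyme in the inner membrane, had 12.74, 12.92 and 12.78 in mutant right atria, 13.09, 12.92 and 13.01 in control ventricles, and 12.32, 12.36 and 12.43 in control right atria. The mutant arrays lay above all control right atria and overlapped the control ventricles. The ratio of mutant to control right atria was 0.44 ± 0.07 (adjusted p = 0.00367), that of control ventricles to control right atria 0.63 ± 0.07 (adjusted p = 9.85e-05), and that of mutant right atria to control ventricles -0.19 ± 0.07 (adjusted p = 0.0746). Sdhc, the other membrane anchor, had 12.11, 12.11 and 12.12 in mutant right atria, 12.39, 12.33 and 12.20 in control ventricles, and 11.85, 11.96 and 11.87 in control right atria, and was 0.22 ± 0.07 higher in mutant than in control right atria (adjusted p = 0.0495). That call was lost on leaving out any one of the atrial arrays or control ventricle replicate 2. It was also lost with the replicate block, quantile normalisation, median centring and no _x_at or _s_at probe sets.

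The ratios of the catalytic subunits between the atria did not pass. Sdha, the flavoprotein that oxidises succinate, had 13.20, 13.10 and 13.17 in mutant right atria, 13.58, 13.59 and 13.64 in control ventricles, and 13.03, 13.15 and 13.09 in control right atria. Mutant and control right atria overlapped (0.07 ± 0.06, adjusted p = 0.484), and mutant right atria were lower than control ventricles (-0.45 ± 0.06, adjusted p = 0.000431). Sdhb, the iron-sulphur subunit, had 13.81, 13.84 and 13.80 in mutant right atria, 14.18, 14.24 and 14.19 in control ventricles, and 13.49, 13.66 and 13.67 in control right atria. Its 3 groups did not overlap, but the ratio of mutant to control right atria did not pass (0.21 ± 0.07, adjusted p = 0.0548).

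Of the 4 complex II assembly factors 3 were higher in mutant than in control right atria (median log2 ratio 0.37). That is 75%, against 7.76% of all genes, the greatest share of any group here but of only 4 genes. All 4 were higher in control ventricles than in control right atria (median 0.73), against 29.2% of all genes. In mutant right atria 3 of 4 were lower than in control ventricles (median -0.34), against 16.7% of all genes. Sdhaf2, which attaches the flavin to Sdha, had 10.44, 10.66 and 10.49 in mutant right atria, 10.85, 10.79 and 10.93 in control ventricles, and 9.86, 10.09 and 10.07 in control right atria. It was 0.52 ± 0.09 higher in mutant than in control right atria (1.44-fold, adjusted p = 0.00366), the greatest rise among the 94 genes, and lower than in control ventricles (-0.33 ± 0.09, adjusted p = 0.017). Sdhaf4, which helps the flavinated Sdha meet Sdhb, had 11.41, 11.55 and 11.45 in mutant right atria, 11.89, 11.76 and 11.80 in control ventricles, and 11.06, 11.14 and 11.12 in control right atria, and was 0.36 ± 0.07 higher in mutant than in control right atria (adjusted p = 0.00579).

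Sdhaf1 and Sdhaf3, which both protect the iron-sulphur subunit Sdhb, had different patterns. Sdhaf1 had 9.69, 9.74 and 9.69 in mutant right atria, 9.63, 9.59 and 9.57 in control ventricles, and 9.36, 9.46 and 9.18 in control right atria. The mutant arrays lay above both control tissues, with 0.38 ± 0.08 against control right atria (adjusted p = 0.00975) and 0.11 ± 0.08 against control ventricles (adjusted p = 0.289). Sdhaf3 had 8.70, 8.97 and 8.94 in mutant right atria, 9.69, 9.70 and 9.40 in control ventricles, and 8.91, 8.86 and 8.79 in control right atria. All 6 atria lay below the ventricles, and mutant right atria were lower than control ventricles (-0.73 ± 0.10, adjusted p = 0.00048), with 0.01 ± 0.10 against control right atria (adjusted p = 0.935).

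Complex III, the cytochrome bc1 complex, had 2 of 8 subunits higher in mutant than in control right atria (median log2 ratio 0.19). That is 25%, against 7.76% of all genes. In control ventricles 6 of 8 were higher than in control right atria (median 0.41), against 29.2% of all genes. In mutant right atria 6 of 8 were lower than in control ventricles (median -0.21), against 16.7% of all genes. Uqcrq, a small subunit that binds coenzyme Q, had 13.21, 13.37 and 13.28 in mutant right atria, 13.72, 13.62 and 13.60 in control ventricles, and 12.90, 12.98 and 12.97 in control right atria, with no overlap among the groups. It was 0.34 ± 0.07 higher in mutant than in control right atria (adjusted p = 0.0087) and lower than in control ventricles (-0.36 ± 0.07, adjusted p = 0.00268). The atrial difference no longer passed with the mean of all its probe sets or without the probe sets that match several transcripts, with ratios down to 0.17 and an adjusted p of up to 0.367. Uqcr11, the other gene that was higher in mutant right atria, gave 0.21 ± 0.05 (adjusted p = 0.0266).

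Uqcrc1, a core protein of the matrix side, had 12.78, 12.99 and 12.88 in mutant right atria, 13.34, 13.35 and 13.38 in control ventricles, and 12.41, 12.71 and 12.68 in control right atria. The groups did not overlap, and the ratio of mutant to control right atria was 0.28 ± 0.09 (adjusted p = 0.0591), against 0.76 ± 0.09 for control ventricles and control right atria (adjusted p = 0.000114). Uqcrb, whose product binds coenzyme Q, lay close to the top of the scale in all 9 arrays, at 14.82 to 14.91, where the array maximum was 15.02 to 15.11. Its ratio and that of Uqcrh did not pass in any of the 3 comparisons.

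**Figure D3:**
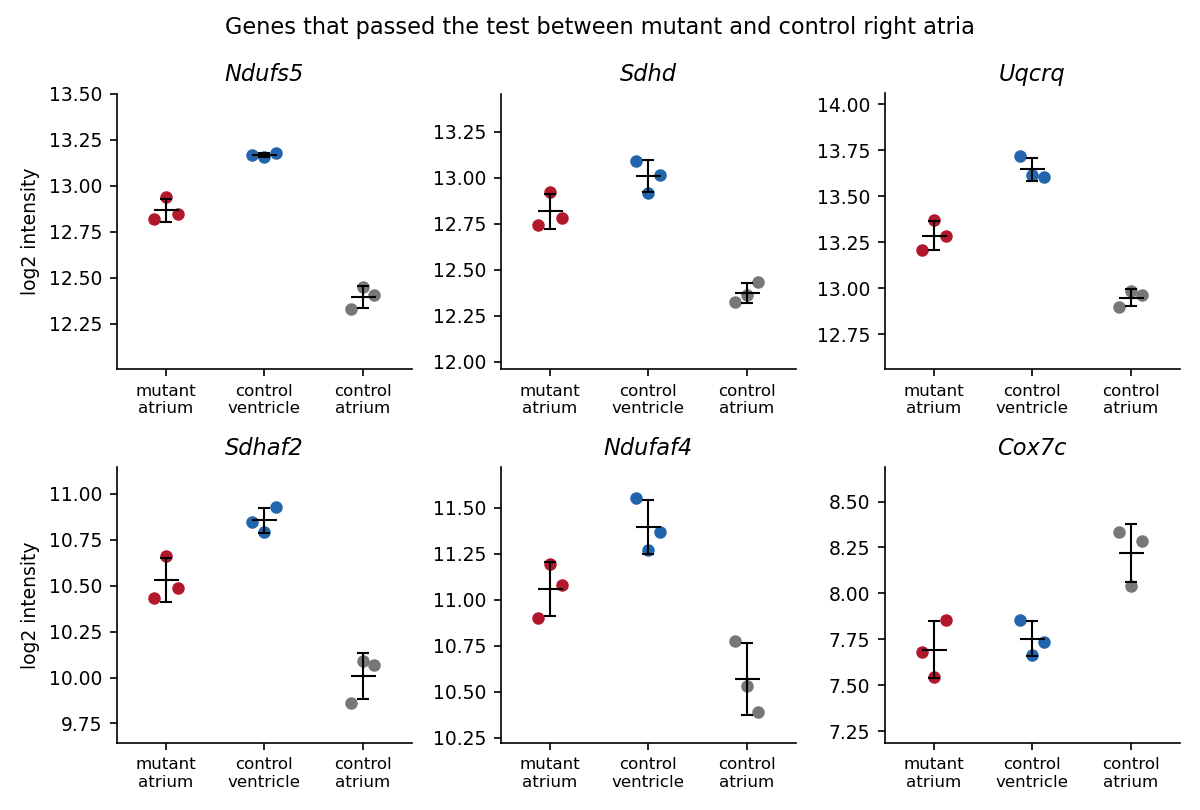
Log2 intensity (vertical axes, each spanning the same range) of 6 genes that passed between mutant and control right atria, with a point per array and bars at the mean ± SD of 3 arrays. Mutant right atria lie between both control tissues for Ndufs5, Uqcrq, Sdhaf2 and Ndufaf4, overlap the control ventricles for Sdhd and Cox7c, and Cox7c is the only 1 of the 6 that is lower than in control right atria.

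Complex IV, cytochrome c oxidase, had the smallest median ratios among complexes I to IV. Of its 19 genes 2 were higher in mutant than in control right atria and 1 was lower (median log2 ratio 0.08), 12 were higher and 3 lower in control ventricles than in control right atria (median 0.17), and 1 was higher and 3 were lower in mutant right atria than in control ventricles (median -0.10). Between mutant and control right atria that is 10.5% higher and 5.26% lower, close to the 7.76% and 9.79% of all genes. For control ventricles against control right atria it is 63.2% higher and 15.8% lower, against 29.2% and 23.6% of all genes. The 3 genes lower in mutant right atria than in control ventricles are 15.8% of the 19, close to the 16.7% of all genes. The 10 subunits found in most tissues gave 1 higher and 1 lower gene between mutant and control right atria, and the 3 muscle forms gave 1 higher gene. The 6 other forms and paralogues gave 0 in limma, with 1 higher and 1 lower at an unadjusted p under 0.05 (Cox4i2, Cox6b2, Cox7a2l, Cox7b2, Cox8c and Ndufa4l2). Cox4i1, the regulatory subunit that binds ATP, had 14.25, 14.28 and 14.27 in mutant right atria, 14.37, 14.41 and 14.43 in control ventricles, and 14.06, 14.11 and 14.07 in control right atria, and was 0.18 ± 0.05 higher in mutant than in control right atria (adjusted p = 0.0448). That call was lost on leaving out any one of the arrays. It was also lost with the replicate block, quantile normalisation, median centring and only the 2 groups compared.

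Cox8b, the muscle form of the smallest subunit, had 13.81, 13.82 and 13.81 in mutant right atria, 14.14, 14.09 and 14.06 in control ventricles, and 13.37, 13.43 and 13.47 in control right atria. The 3 groups were separate, with mutant right atria in the middle. It was 0.39 ± 0.06 higher in mutant than in control right atria (1.31-fold, adjusted p = 0.00199), 0.67 ± 0.06 higher in control ventricles than in control right atria (adjusted p = 1.29e-05) and lower in mutant right atria than in control ventricles (-0.29 ± 0.06, adjusted p = 0.00388). Cox8a, the form of most tissues, went the other way between the chambers. Its levels were 12.35, 12.21 and 12.40 in mutant right atria, 11.98, 11.95 and 11.98 in control ventricles, and 12.26, 12.16 and 12.21 in control right atria, so that all 6 atria lay above the ventricles. It was lower in control ventricles than in control right atria (-0.25 ± 0.07, adjusted p = 0.0117) and 0.36 ± 0.07 higher in mutant right atria than in control ventricles (adjusted p = 0.00266), with 0.11 ± 0.07 between mutant and control right atria (adjusted p = 0.27).

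The difference of both Cox8 forms within each array, Cox8b minus Cox8a, was 1.49 ± 0.10 in mutant right atria, 2.13 ± 0.04 in control ventricles and 1.21 ± 0.09 in control right atria (SD, n = 3 each). This balance, on the scale of 2 different probe sets, has no meaning as a level, but it can be compared between arrays. It was 0.28 higher in mutant than in control right atria, 0.92 higher in control ventricles than in control right atria and lower in mutant right atria than in control ventricles (-0.64). The groups did not overlap in any of these, and the exact permutation p was 0.1 each time, the smallest that 3 against 3 arrays allow. Over all 24 such tests of 8 pairs no adjusted p was under 0.171, so that none could pass.

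Cox7a1, the muscle form of subunit VIIa, had 13.44, 13.43 and 13.42 in mutant right atria, 13.78, 13.84 and 13.77 in control ventricles, and 13.28, 13.42 and 13.30 in control right atria. Its ratio was 0.46 ± 0.06 between control ventricles and control right atria (adjusted p = 0.000209) and 0.10 ± 0.06 between mutant and control right atria (adjusted p = 0.302). Cox7a2, the form of most tissues, had 14.15, 14.03 and 14.14 in mutant right atria, 14.17, 14.20 and 14.25 in control ventricles, and 14.16, 14.19 and 14.12 in control right atria, and passed in none of the comparisons. Cox7a1 minus Cox7a2 was -0.67 ± 0.07 in mutant right atria, -0.41 ± 0.06 in control ventricles and -0.82 ± 0.06 in control right atria (SD, n = 3 each), again without overlap (exact permutation p = 0.1 for each pair of groups).

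Cox6a2, the heart and skeletal muscle form of the subunit that regulates the enzyme by ADP, had 14.22, 14.29 and 14.29 in mutant right atria, 14.39, 14.42 and 14.41 in control ventricles, and 14.21, 14.25 and 14.24 in control right atria. It was 0.17 higher in control ventricles than in control right atria (adjusted p = 0.0258), while mutant and control right atria overlapped (0.03, adjusted p = 0.714). Cox6a1, the form of most tissues, had 13.55, 13.59 and 13.69 in mutant right atria, 13.49, 13.38 and 13.36 in control ventricles, and 13.72, 13.63 and 13.53 in control right atria. It was lower in control ventricles than in control right atria (-0.22 ± 0.07, adjusted p = 0.0322), a call that was lost under 7 of the 18 settings. Cox6a2 minus Cox6a1 was 0.66 ± 0.05 in mutant right atria, 0.99 ± 0.08 in control ventricles and 0.61 ± 0.11 in control right atria (SD, n = 3 each). Here mutant and control right atria overlapped (exact permutation p = 0.7), and both lay below the ventricles (exact permutation p = 0.1 each).

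Cox4i2, the lung-rich partner of Cox4i1, had 5.91, 6.00 and 5.86 in mutant right atria, 6.03, 6.41 and 6.17 in control ventricles, and 5.57, 5.69 and 5.87 in control right atria, and passed between control ventricles and control right atria (0.49 ± 0.11, adjusted p = 0.00434). Ndufa4l2, a paralogue of Ndufa4 induced under low oxygen, had 7.74, 8.03 and 7.87 in mutant right atria, 8.09, 8.30 and 8.34 in control ventricles, and 7.81, 7.77 and 7.87 in control right atria, and was lower in mutant right atria than in control ventricles (-0.36 ± 0.09, adjusted p = 0.0129). Cox6b2, a testis form, had 6.28, 6.37 and 6.37 in mutant right atria, 6.37, 6.57 and 6.28 in control ventricles, and 6.46, 6.32 and 6.21 in control right atria, with all 3 groups overlapping. Between mutant and control right atria the balance of Cox4i2 over Cox4i1 (0.03) and of Ndufa4l2 over Ndufa4 (0.04) differed with overlapping arrays, while that of Cox6b2 over Cox6b1 was lower without overlap (-0.15, exact permutation p = 0.1).

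**Figure D4:**
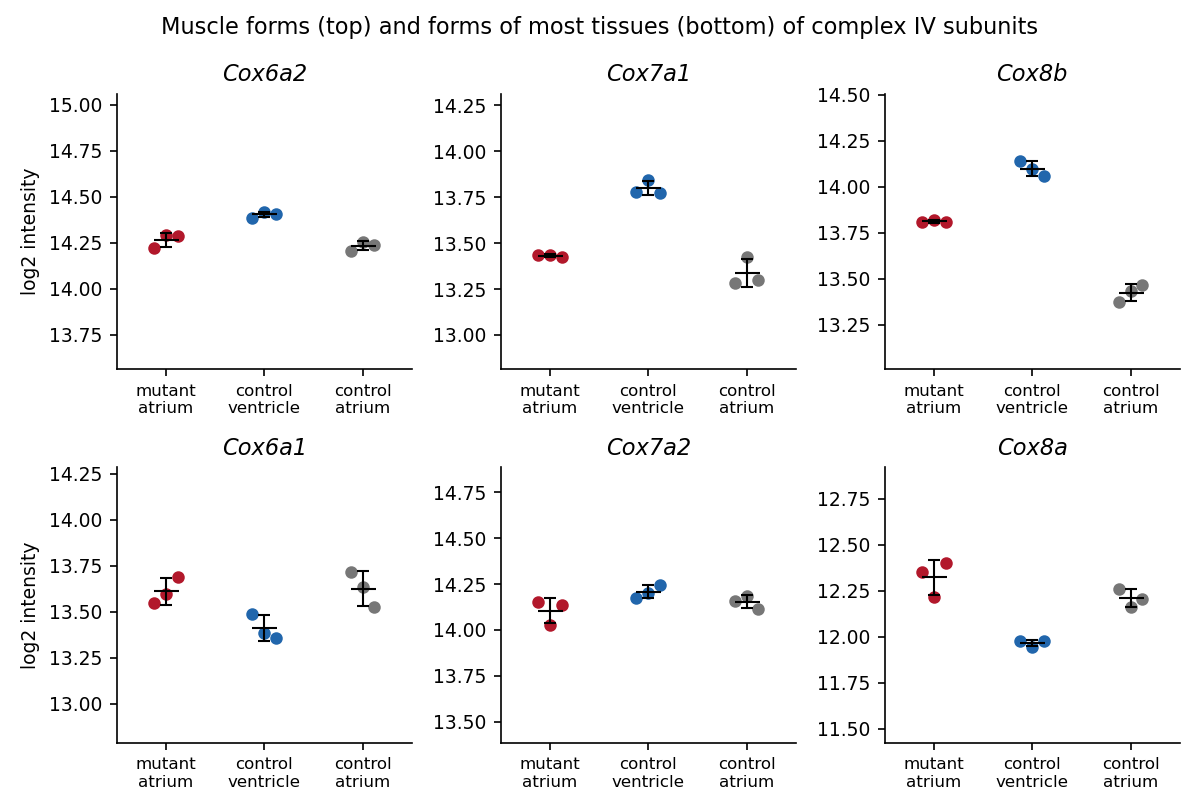
Log2 intensity (vertical axes, each spanning the same range) of the muscle forms Cox6a2, Cox7a1 and Cox8b and of the forms of most tissues Cox6a1, Cox7a2 and Cox8a, with a point per array and bars at the mean ± SD of 3 arrays. The muscle forms are highest in control ventricles, and of the 6 genes Cox8b alone passed between mutant and control right atria, while Cox8a and Cox6a1 are lowest in control ventricles.

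Cox7c was the only gene of the 94 that was lower in mutant than in control right atria. Its product is a small subunit of complex IV found in most tissues. It had 7.68, 7.54 and 7.85 in mutant right atria, 7.86, 7.67 and 7.74 in control ventricles, and 8.33, 8.04 and 8.29 in control right atria. The control right atria lay above the other 6 arrays, with -0.53 ± 0.10 for mutant against control right atria (adjusted p = 0.00868), -0.47 ± 0.10 for control ventricles against control right atria (adjusted p = 0.00459) and -0.06 ± 0.10 for mutant right atria against control ventricles (adjusted p = 0.69). A second, dimmer probe set with means of 4.54 in mutant right atria, 4.56 in control ventricles and 5.06 in control right atria gave -0.51 and -0.50 against control right atria. The brighter probe set lay at percentile 56.5 of all genes by its mean over 9 arrays. No brighter probe set was annotated to Cox7c, and whether these probe sets detect the main Cox7c transcript was not tested. Cox7a2l, known for joining complexes III and IV, had 11.89, 11.65 and 11.71 in mutant right atria, 11.82, 11.71 and 11.70 in control ventricles, and 11.94, 11.90 and 11.95 in control right atria, without passing (-0.18 ± 0.07 for mutant against control right atria, adjusted p = 0.133).

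The 17 genes of the ATP synthase had small ratios. Between mutant and control right atria 0 passed in limma (median log2 ratio 0.07), with 7 higher and 0 lower at an unadjusted p under 0.05. Of the 17 genes 10 were higher in control ventricles than in control right atria (median 0.19), that is 58.8%, against 29.2% of all genes. In mutant right atria 3 were lower than in control ventricles (median -0.10). These 3 are 17.6% of the 17, close to the 16.7% of all genes that were lower there. The 0 between the atria depended on the variance model, since 7 were higher with an intensity trend and robust variance (Atp5d, Atp5g1, Atp5h, Atp5j2, Atp5k, Atp5l and Atp5o). Of these, Atp5j2 and Atp5k also passed with array weights and without the dimmest 40% of genes, and Atp5j2 passed without the _x_at and _s_at probe sets. Atp5b, the catalytic beta subunit, had 14.34, 14.35 and 14.32 in mutant right atria, 14.34, 14.41 and 14.34 in control ventricles, and 14.31, 14.34 and 14.34 in control right atria. Its arrays overlapped in all comparisons, and its p between mutant and control right atria was the largest of the 94 genes (0.00 ± 0.05, adjusted p = 0.976). The 3 that passed between mutant right atria and control ventricles were Atp5g1, Atp5e and Atp5l.

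Atp5g1, Atp5g2 and Atp5g3 encode the same ring subunit c with different import sequences. Atp5g1 had 14.06, 14.11 and 14.06 in mutant right atria, 14.32, 14.32 and 14.30 in control ventricles, and 13.89, 13.96 and 13.96 in control right atria. It was 0.38 ± 0.05 higher in control ventricles than in control right atria (adjusted p = 0.000382) and lower in mutant right atria than in control ventricles (-0.24 ± 0.05, adjusted p = 0.00768), with 0.14 ± 0.05 between mutant and control right atria (adjusted p = 0.12). Neither Atp5g2 nor Atp5g3 passed in any comparison. Atp5g1 minus Atp5g3 was -0.29 ± 0.03 in mutant right atria, -0.10 ± 0.03 in control ventricles and -0.37 ± 0.02 in control right atria (SD, n = 3 each), without overlap (exact permutation p = 0.1 for each pair of groups). With the mean of all probe sets this balance was instead lower in mutant than in control right atria (-0.22). That mean includes a much dimmer Atp5g1 probe set (mean level 6.33, against 14.11 for the one used). The dimmer probe set was lower in mutant than in control right atria (-0.46, adjusted p = 0.00478 in limma over every probe set). Atp5e, the epsilon subunit of the rotor, had 13.32, 13.19 and 13.22 in mutant right atria, 13.50, 13.51 and 13.58 in control ventricles, and 13.15, 13.21 and 13.19 in control right atria, and was lower in mutant right atria than in control ventricles (-0.28, adjusted p = 0.00603).

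The size of the ratios went with the brightness of the probe sets. Among the 47 brighter genes (means of 13.55 to 14.88) 9 were higher in mutant than in control right atria, with a median log2 ratio of 0.08, against 13 higher and 1 lower of the 47 dimmer genes with a median of 0.16. Between control ventricles and control right atria the medians were 0.23 for the brighter and 0.44 for the dimmer genes. The ATP synthase genes had a median level of 14.02, those of complexes I to IV between 13.01 and 13.59, and the assembly factors 9.90. The part of brightness in the order of the complexes was not tested. The array maxima lay at log2 15.02 to 15.11, and whether ratios of the brightest probe sets are limited near them was not tested either.

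**Figure D5:**
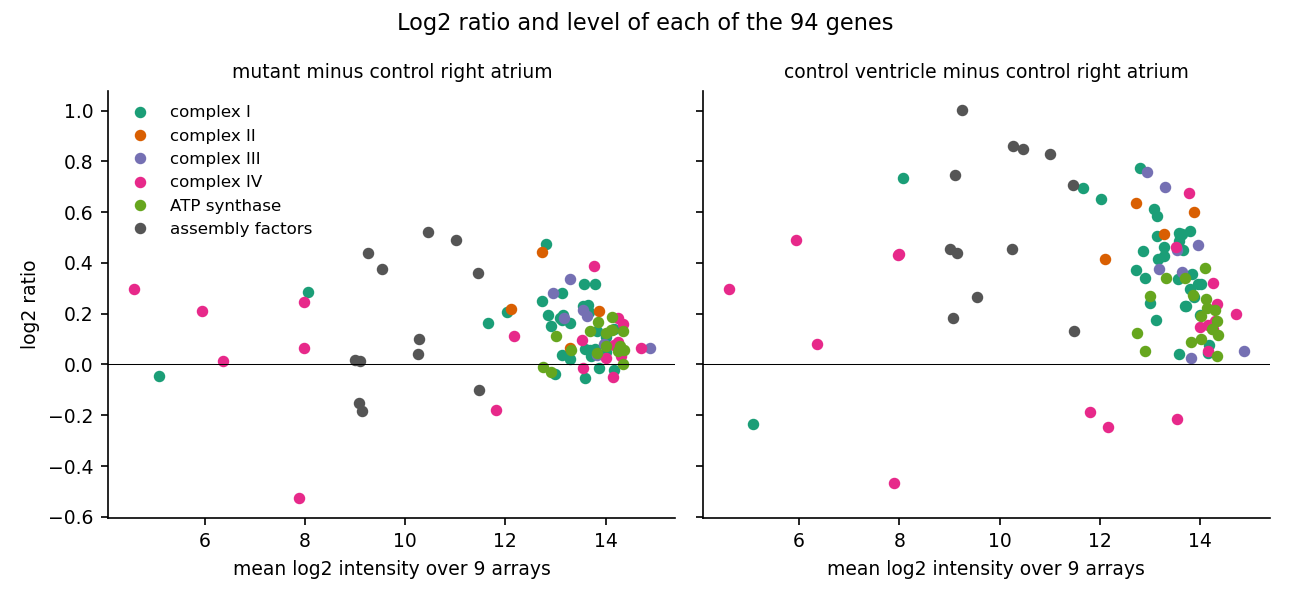
Log2 ratio (vertical axes) against the mean log2 intensity over 9 arrays (horizontal axes) for the 94 genes, coloured by complex, for mutant minus control right atria and for control ventricles minus control right atria. The ATP synthase genes, at the right end, lie at 0.19 or below in the comparison of the atria, and the greatest positive ratios belong to assembly factors with levels of 9 to 11.5.

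Other genes of the pathway were counted by lists, to be read against the shares of all genes. Between mutant and control right atria 7.76% of all genes were higher and 9.79% lower. In control ventricles against control right atria the shares were 29.2% and 23.6%, and in mutant right atria against control ventricles 16% and 16.7%. Of 8 genes of cytochromes and mobile electron carriers 4 were higher in mutant than in control right atria and 0 lower, and 6 were higher and 1 lower in control ventricles than in control right atria. Etfb, a subunit of the flavoprotein that brings electrons from fatty acid oxidation, had 12.86, 12.96 and 12.90 in mutant right atria, 13.20, 13.25 and 13.30 in control ventricles, and 12.47, 12.40 and 12.48 in control right atria (0.46 ± 0.06 for mutant against control right atria, adjusted p = 0.00106). Its partners Etfa (0.28 ± 0.06) and Etfdh (0.39 ± 0.09) and cytochrome c1, Cyc1 (0.25 ± 0.07), were also higher. Of 12 measured genes of coenzyme Q synthesis 2 were higher in mutant than in control right atria (Coq8a and Coq6), 10 were higher in control ventricles than in control right atria, and 10 were lower in mutant right atria than in control ventricles. Coq3, a methyltransferase of the pathway, had 9.0005, 9.35 and 9.14 in mutant right atria, 10.63, 10.39 and 10.35 in control ventricles, and 8.83, 8.96 and 8.69 in control right atria, and was lower in mutant right atria than in control ventricles (-1.29 ± 0.11, adjusted p = 3.34e-05). Coq10a, a coenzyme Q binding protein, was likewise lower (-1.28 ± 0.07, adjusted p = 2e-06).

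Assembly factors without the prefixes were counted separately. Of 9 such factors of complex I 0 passed between mutant and control right atria in limma, with 1 higher and 0 lower at an unadjusted p under 0.05, and 6 were higher in control ventricles than in control right atria. Of 27 factors of complexes III and IV 6 were higher and 1 lower in mutant than in control right atria, and 22 were higher in control ventricles than in control right atria. The lower gene was Pet100, a chaperone of complex IV, with 9.68, 9.35 and 9.55 in mutant right atria, 10.04, 10.08 and 10.04 in control ventricles, and 9.98, 9.9997 and 9.93 in control right atria (-0.45 ± 0.08 for mutant against control right atria, adjusted p = 0.00642). Lrpprc, which stabilises mitochondrial messenger RNA, had 10.21, 10.31 and 10.27 in mutant right atria, 11.17, 11.21 and 11.14 in control ventricles, and 10.12, 10.23 and 10.15 in control right atria, and was lower in mutant right atria than in control ventricles (-0.91 ± 0.06, adjusted p = 7.1e-06).

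The inhibitor of the ATP synthase stood apart from the enzyme's own subunits. Atpif1, whose product blocks ATP hydrolysis by the enzyme, had 12.30, 12.41 and 12.05 in mutant right atria, 11.94, 11.93 and 11.75 in control ventricles, and 11.36, 11.32 and 11.35 in control right atria. The mutant arrays were the highest of the 9, at 0.91 ± 0.10 above control right atria (1.88-fold, adjusted p = 0.000328) and 0.38 ± 0.10 above control ventricles (adjusted p = 0.0137). A newer name of this gene begins with the prefix Atp5, and with it the 95 genes gave 23 higher in mutant than in control right atria. Atpaf1, an assembly factor of the F1 part, was 0.56 ± 0.15 higher in mutant than in control right atria (adjusted p = 0.0313).

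Of 20 measured transcriptional regulators of respiration 5 were higher and 1 lower in mutant than in control right atria, and 10 were higher and 2 lower in control ventricles than in control right atria. Ppargc1b, a coactivator of oestrogen-related receptors, had 10.81, 10.84 and 10.92 in mutant right atria, 11.10, 10.97 and 11.36 in control ventricles, and 9.96, 10.23 and 9.58 in control right atria. It was 0.93 ± 0.15 higher in mutant than in control right atria (adjusted p = 0.00343). Perm1, a muscle regulator of the same pathway, had 9.95, 10.002 and 9.97 in mutant right atria, 10.62, 10.68 and 10.75 in control ventricles, and 9.18, 9.57 and 9.38 in control right atria (0.59 ± 0.09 for mutant against control right atria, adjusted p = 0.00278). Hif1a (0.61 ± 0.08), Esrrb (0.38 ± 0.08) and Esrrg (0.31 ± 0.08) were also higher and Gabpb1 was lower (-0.38 ± 0.09). Ppargc1a, the best known coactivator of the pathway, had 12.22, 11.79 and 11.58 in mutant right atria, 11.97, 12.62 and 12.38 in control ventricles, and 12.07, 11.77 and 12.15 in control right atria, with all groups overlapping (-0.13 ± 0.20 for mutant against control right atria, adjusted p = 0.675).

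Of 14 genes that maintain or transcribe mitochondrial DNA 1 was higher (Polrmt) and 1 lower (Mterf1) in mutant than in control right atria, 10 were higher in control ventricles than in control right atria, and 11 were lower in mutant right atria than in control ventricles. The 1 of 14 in each direction between the atria is near the shares of all genes (7.76% higher, 9.79% lower). Tfam, which packages mitochondrial DNA, had 9.80, 9.91 and 9.85 in mutant right atria, 10.44, 10.30 and 10.26 in control ventricles, and 10.0006, 9.99 and 9.88 in control right atria, and was lower in mutant right atria than in control ventricles (-0.48 ± 0.07, adjusted p = 0.000706). Of 18 measured genes of the inner membrane, cristae and import 3 were higher in mutant than in control right atria and 0 lower, and 14 were higher and 1 lower in control ventricles than in control right atria. Apoo, a component of the cristae junction, was 0.41 ± 0.07 higher in mutant than in control right atria (adjusted p = 0.00431).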

How the data were processed

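Per the labels, total RNA of 9 heart samples was extracted with Trizol and RNeasy, amplified with the 3′ IVT Express kit and hybridised to Affymetrix mouse arrays. The authors deposited an intensity for each probe set, summarised with RMA, per the submitters' processing notes. Its version and background options are not given in the sources used here. The deposited intensities are linear, and their log2 was taken here.

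Of 45101 probe sets, 64 control probe sets, 932 of several genes and 9160 without a gene name in the platform annotation were left out. The other 34945 gave 18193 genes, each represented by its probe set of highest mean level. The 94 genes have 185 probe sets, and 53 have several. A further 10 probe sets that share a matching name with another gene were left out, so that Ndufs6 and Ndufa11, among others, are not analysed here. All 9 arrays entered 1 model with a mean per group in limma 3.58.1 (lmFit and eBayes) under R 4.3.3, tested 2-sided (degrees of freedom: 6 residual, 3.48 prior). Isoform balances were tested by exact permutation in scipy 1.17.1. Figures were drawn with matplotlib 3.10.9. The procedure was tested on simulated data. Precision is limited by having 3 arrays in a group.

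The genes and lists were chosen with earlier results of these data known. In each comparison full values were given for up to 8 rises and 8 falls of greatest size, isoform pairs, Sdhd, Cox7c and Cox8b, and for up to 4 genes per list. The likeness of other genes to Cox7c over arrays is not given, since the arrays fall into 3 groups. Alternatives were a replicate block, an intensity trend with robust variance, quantile normalisation, no dimmest 40% of genes, the mean of all probe sets, median centring, no _x_at or _s_at probe sets, array weights, each probe set by itself, only the 2 groups compared, an adjusted p of 0.01, a 1.5-fold minimum and leaving out each array. Counting Atpif1 among the genes was added after seeing the data. Replicate numbers were not treated as pairs, since no label says that they pair the samples. Deviations of same-numbered arrays correlated at -0.10 to 0.12 and those of different-numbered arrays at -0.16 to 0.15. These ranges overlap and cannot decide whether samples were paired.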

Additional observations from a re-analysis of the deposited data

How the results depend on the processing

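Medians over all 94 genes kept their sign under every alternative, at 0.10 to 0.13 for mutant minus control right atria, 0.31 to 0.36 for control ventricles minus control right atria and -0.23 to -0.18 for mutant right atria minus control ventricles. With 22 genes higher and 1 lower in mutant than in control right atria as the values reported, an intensity trend with robust variance gave 41 higher, an adjusted p of 0.01 gave 7 and a 1.5-fold minimum gave 0 higher and 0 lower. Array weights gave 2 lower and every probe set on its own 3. Leaving out an array gave 8 to 20 higher and 1 to 2 lower (2 without mutant replicate 1). For control ventricles against control right atria (73 higher, 4 lower), an adjusted p of 0.01 gave 1 lower, a 1.5-fold minimum 16 higher and 0 lower, and every probe set on its own 7 lower. Leaving out an array gave 64 to 72 higher and 2 to 5 lower, with 2 without control right atrium replicate 1 or control ventricle replicate 3. For mutant right atria against control ventricles (1 higher, 50 lower), the trend, quantile normalisation, no dimmest 40% of genes, array weights, the mean of all probe sets and the addition of Atpif1 each gave 2 higher. There an adjusted p of 0.01 gave 32 lower, a 1.5-fold minimum 0 higher and 3 lower, and leaving out an array 1 to 2 higher and 35 to 49 lower. With the replicate block the counts were 16 higher and 1 lower, 69 and 3, and 1 and 44, in the same order of comparisons. It moved no count by over 1.5 times. Among the isoform balances, none of which could pass, the sign turned for Cox6a2 over Cox6a1 between mutant and control right atria with the mean of all probe sets (-0.031), and for Atp5g1 over Atp5g3 with the mean of all probe sets (-0.22). It also turned for Cox6b2 over Cox6b1 between mutant right atria and control ventricles with quantile normalisation (-0.039) and averaging of all probe sets (-0.010), and for Atp5g2 over Atp5g3 between control ventricles and control right atria with that mean (-0.028). Leaving out an array turned the sign for 5 balances, with ranges of -0.011 to 0.10 for Cox6a2 over Cox6a1 (mutant right atrium minus control right atrium), -0.031 to 0.12 for Cox4i2 over Cox4i1 (mutant right atrium minus control right atrium), -0.043 to 0.10 for Cox6b2 over Cox6b1 (mutant right atrium minus control ventricle), -0.026 to 0.10 for Ndufa4l2 over Ndufa4 (mutant right atrium minus control right atrium) and -0.023 to 0.054 for Atp5g2 over Atp5g3 (control ventricle minus control right atrium). The cause was not tested.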
